A study of Mus musculus with 12 samples.

Results

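Expression of 10 genes of transforming growth factor beta (TGF-beta) signalling was examined in natural killer (NK) cells of mice, out of 50674 genes in the deposited count table. They were picked by symbol as the ligand gene Tgfb1, the receptor genes Tgfbr1, Tgfbr2 and Acvrl1, the Smad genes Smad2, Smad3, Smad4 and Smad7, and the co-repressor genes Ski and Skil. All 10 were found once each, and all 10 were among the 17457 genes that passed the filter on low counts. The cells were splenic NK cells expanded with interleukin 2, and polyadenylated RNA was sequenced from 4 groups of 3 libraries each. The groups were Mirc11-/- cells after 6 h of stimulation via NKG2D, an activating receptor, unstimulated Mirc11-/- cells, wild-type cells stimulated in the same way, and unstimulated wild-type cells. The strain of all samples was labelled C57BL/6, and all cells had been expanded with interleukin 2. The Mirc11 locus holds the microRNA genes Mir23a, Mir27a and Mir24-2. The series calls the libraries of a group biological replicates, and the labels name no animal for any of them.

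In this pathway the TGF-beta ligand binds a type II receptor kinase, the product of Tgfbr2, which activates a type I receptor kinase, the product of Tgfbr1. The type I receptor phosphorylates the proteins of Smad2 and Smad3, which join that of Smad4 and act on genes in the nucleus. Smad7 encodes an inhibitor that acts at the receptors and is itself a target of the pathway, and the Ski and Skil proteins bind Smads and repress their targets. Acvrl1 encodes another type I receptor, ALK1, best known from endothelial cells. TGF-beta is known in NK cells as a factor that restrains cytotoxicity and interferon gamma production.

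The deleted microRNAs are printed because the groups differ in them. Their mature sequences (RefSeq, GRCm38.p6, chromosome 8, plus strand) are given 5′ to 3′, and capitals mark the seed, bases 2 to 8, with which a microRNA pairs to its targets.
mmu-miR-23a-3p: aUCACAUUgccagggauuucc
mmu-miR-27a-3p: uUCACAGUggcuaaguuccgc
mmu-miR-24-3p: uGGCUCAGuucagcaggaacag
No seed is shared between these. The letters that pair with the seed of miR-23a are AATGTGA, those for miR-27a are ACTGTGA, and those for miR-24 are CTGAGCC. They were searched on the sense strand of the longest annotated 3' untranslated region of each gene. A match to any of the 3 was held by 41.6% of the 12807 regions of tested genes. It was held by 6 of the 10 genes examined, with 12 matches in all. Tgfbr2 had 5 matches in a region of 6085 bases, Smad2 and Smad3 had 2 each, and Acvrl1, Tgfbr1 and Ski had 1 each. Tgfb1, Smad4, Smad7 and Skil had none of these letters in that region. Of regions within 20% of the length of the one in Acvrl1 (1859 bases), 51.9% held a match, and of those within 20% of the length of the one in Tgfbr2, 84.1% did. A match describes the letters and was not tested as a binding site.

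The matches in Acvrl1 and Smad3, and in the activin receptor gene Acvr2a described further on, are shown because these receptors differed between genotypes and Smad3 is the receptor-activated Smad that fell in both genotypes. Capitals mark the letters that pair with the seed.
Acvrl1 with miR-23a, chr15:101144625-101144653, plus strand: tggtatttagaAATGTGAagggttcaccc
Acvr2a with miR-27a, chr2:48901416-48901444, plus strand: atcaggagctcACTGTGAatgcattatct
Smad3 with miR-23a, chr9:63648978-63649006, minus strand: gtgtaccctccAATGTGAtaaatcttctg
Smad3 with miR-27a, chr9:63649223-63649251, minus strand: tgccacagcaaACTGTGAcactgtgtaat
Coordinates are of GRCm38 with the GENCODE vM21 transcripts. The matches in Acvrl1 and Acvr2a are followed by an A, a letter that extends the pairing motif opposite the first base of the microRNA. The matches in Smad3 are not. A miR-23a match in Tgfbr2 (chr9:116087804-116087832) is also followed by an A. Mirc11-/- over wild-type, Tgfbr2 differed by -0.13 log2 ± 0.10 (SE) in unstimulated and -0.00064 log2 ± 0.10 in stimulated cells. Such a match is also found in the receptor genes Acvr1b, Acvr1c, Bmpr2 and Tgfbr3. Whether the A goes with a genotype difference was not tested. Of regions similar in length by the window above, 71.9% held a match for Acvr2a and 72.0% for Smad3.

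Library totals ranged from 15139281 to 25342991 counts. The microRNA gene Mir27a had 0 counts in each of the 6 Mirc11-/- libraries, 0 to 4 counts in stimulated wild-type libraries and 2 to 3 counts in unstimulated wild-type libraries. All 10 NK markers were detected, and their summed level was 4718 to 7304 CPM (counts scaled to a common library total) in stimulated and 12260 to 13320 CPM in unstimulated Mirc11-/- libraries, against 8207 to 9610 CPM and 11370 to 13670 CPM in stimulated and unstimulated wild-type libraries. Reads in vomeronasal receptor genes, which NK cells are not known to use, summed to 49.1 to 85.4 CPM in stimulated Mirc11-/- libraries and 14.6 to 16.97 CPM in unstimulated ones. In wild-type cells these sums were 24.8 to 41.5 CPM with stimulation and 13.6 to 17.4 CPM without. Stimulated Mirc11-/- replicate 1 had the highest sum of all 12 libraries and stood apart from replicates 2 and 3 of its group for several of the genes below. Results that rest on it are given with and without it.

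Compared per kilobase of exon, Tgfbr2 was the most abundant of the 10 transcripts in every group, at 50.6 ± 4.93 and 42.3 ± 2.82 CPM per kb in stimulated and unstimulated Mirc11-/- cells and 50.6 ± 2.83 and 46.4 ± 4.04 CPM per kb in stimulated and unstimulated wild-type cells (SD, n = 3). Tgfb1 came next, at 17.7 to 23.8 CPM per kb across the group means. With the longest transcript as the length, Tgfbr2 and Tgfb1 were nearly level in unstimulated wild-type cells, at 46.9 and 46.6 CPM per kb. In unstimulated Mirc11-/- cells these means were 42.8 and 39.1 CPM per kb. They were 51.2 and 36.3 CPM per kb in stimulated Mirc11-/- and 51.2 and 34.6 CPM per kb in stimulated wild-type cells. Skil, Smad4 and Tgfbr1 followed at 7.73 to 12.4 CPM per kb. Per kb of exon, neighbours among these 5 did not overlap in any group, and overlap with the longest transcript as the length was not assessed. In unstimulated wild-type cells Smad4 lay above Skil per kb of exon and below it with the longest transcript as the length. Smad3, Ski, Smad2 and Smad7 lay between 2.25 and 6.37 CPM per kb, and several neighbours among them overlapped, such as Smad3 with Ski and Ski with Smad2 in unstimulated wild-type cells. Acvrl1 was lowest in 3 of the 4 groups (0.5001 to 1.34 CPM per kb), and in unstimulated Mirc11-/- cells its 3.25 CPM per kb overlapped the 2.92 CPM per kb of Smad7.

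**Figure D1:**
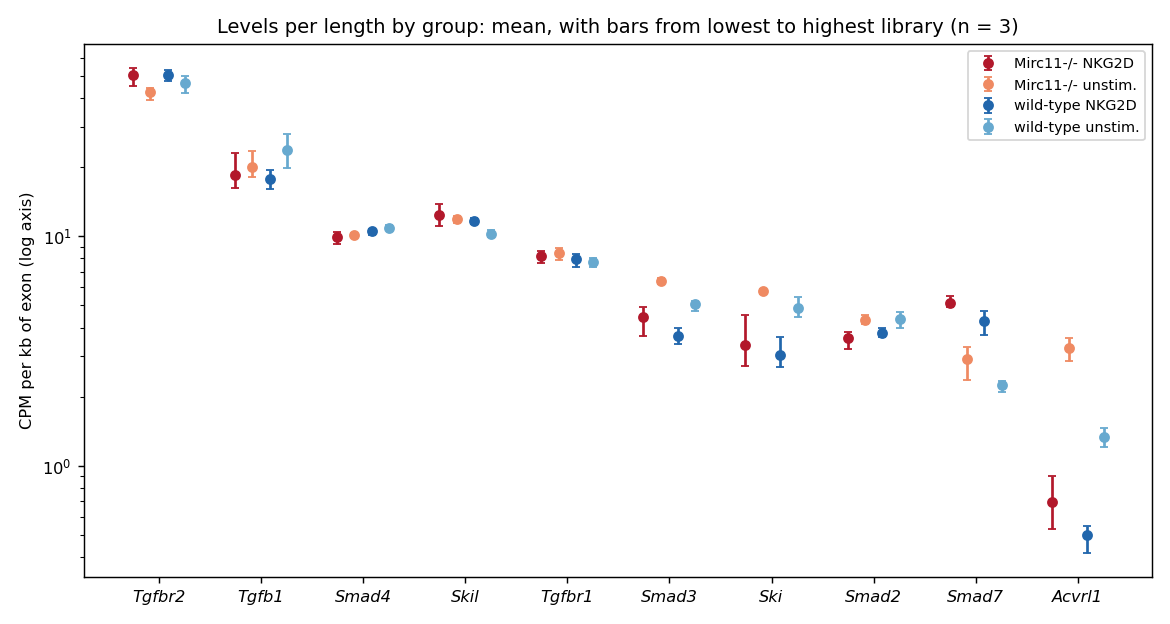
Level of each gene in CPM per kb of exon (log axis) in the 4 groups, with points for means and bars from the lowest to the highest of 3 libraries. Tgfbr2 stands at 42.3 to 50.6 CPM per kb in every group, and Acvrl1 spans 0.5001 to 3.25 CPM per kb.

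NKG2D stimulation lowered Acvrl1, Ski and Smad3 and raised Smad7 in both genotypes. In Mirc11-/- cells 5 of the 10 genes passed the test (edgeR quasi-likelihood test, Benjamini-Hochberg adjustment over all tested genes, threshold 0.05), 1 higher and 4 lower, while 45.6% of all tested genes passed, 23.5% higher and 22.1% lower. In wild-type cells 4 passed, 1 higher and 3 lower, while 31.8% of all tested genes passed, 16.1% higher and 15.7% lower, so both counts lie near the share among all genes. The median log2 change of the 10 was -0.07 in Mirc11-/- cells and -0.12 in wild-type cells, against 0.03 and 0.02 over all tested genes. Groups did not overlap for 6 genes in Mirc11-/- cells, where 54.0% of tested genes did not (27.9% higher and 26.2% lower). They did not overlap for 7 in wild-type cells, where 49.0% of tested genes did not (24.9% higher and 24.1% lower). The wild-type count of calls was 7 without stimulated Mirc11-/- replicate 1, a library of neither group compared. In that fit 6852 of all 17683 tested genes passed, against 5559 of 17457 with every library. The cause was not tested. These RNA levels are of whole cultures, so fewer cells of a type and less RNA per cell cannot be told apart.

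**Figure D2:**
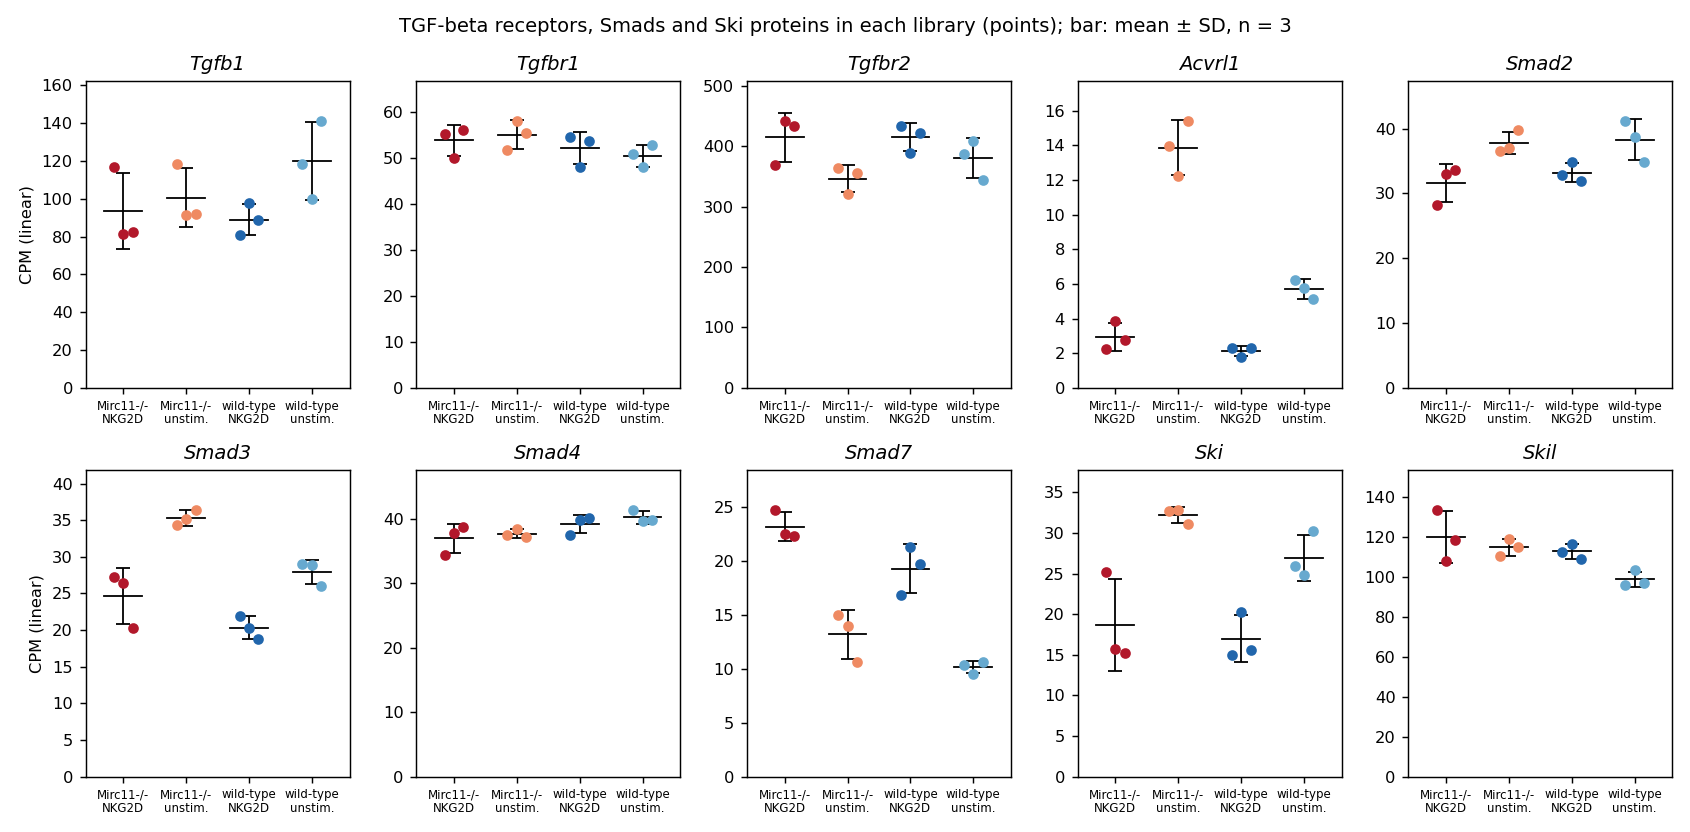
Level of each gene in CPM (linear axes from 0) in every library, in the order stimulated Mirc11-/-, unstimulated Mirc11-/-, stimulated wild-type and unstimulated wild-type cells, with mean and SD of 3 libraries. Acvrl1 reaches 12.2 to 15.4 CPM in unstimulated Mirc11-/- libraries and at most 6.24 CPM in any other library, and Smad7 is higher in all stimulated than in all unstimulated libraries of its genotype.

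Among the receptors, Acvrl1 (ENSMUSG00000000530, chromosome 15, 101128522 to 101145336) changed most. It had 2.26, 3.85 and 2.75 CPM in stimulated Mirc11-/- replicates 1 to 3, against 13.96, 12.2 and 15.4 CPM in unstimulated ones, from 39 to 66 and 194 to 263 counts. In wild-type cells it had 2.33, 1.78 and 2.29 CPM with stimulation, against 6.24, 5.77 and 5.13 CPM without, from 35 to 50 and 105 to 159 counts. Every stimulated library lay below every unstimulated library of both genotypes. The transcript fell by 2.23 log2 ± 0.19 (SE) in Mirc11-/- cells, a 4.69-fold decrease (adjusted p = 1.24e-06), and fell by 1.42 log2 ± 0.20 in wild-type cells, a 2.67-fold decrease (adjusted p = 0.000123). An antisense transcript model, Gm16031, overlaps its exons and had at most 1 count in any library.

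Tgfbr2 (ENSMUSG00000032440, chromosome 9, 116084293 to 116175360), the ligand-binding receptor, had 368, 441 and 434 CPM in stimulated Mirc11-/- libraries, against 363, 320.1 and 356 CPM in unstimulated ones. Its change of 0.26 log2 ± 0.10 did not pass (adjusted p = 0.0530). With all libraries it passed in DESeq2, limma voom, the stricter filter and the fit with no composition factor (adjusted p = 0.0286, 0.0457, 0.0160 and 0.0215). Replicate 1 lay close to the unstimulated libraries, and without it the change was 0.34 log2 (adjusted p = 0.00555). In wild-type cells the levels overlapped, at 433, 389 and 422 CPM with stimulation and 387, 408 and 343 CPM without (0.13 log2 ± 0.10, adjusted p = 0.375). Tgfbr1 (ENSMUSG00000007613, chromosome 4, 47353222 to 47414931), the signalling receptor, stayed between 48.0 and 58.0 CPM in all 12 libraries. Its estimated change had a 95% interval of -0.21 to 0.15 log2 in Mirc11-/- cells and -0.13 to 0.22 log2 in wild-type cells (adjusted p = 0.775 and 0.710).

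The ligand gene Tgfb1 (ENSMUSG00000002603, chromosome 7, 25687002 to 25705077) had 117, 81.45 and 82.3 CPM in stimulated Mirc11-/- libraries, against 119, 91.3 and 92.0 CPM in unstimulated ones. Replicate 1 was the highest within each group, and the groups overlapped (-0.11 log2 ± 0.16, adjusted p = 0.613). In wild-type cells it had 81.1, 97.6 and 88.6 CPM with stimulation, against 118, 100.2 and 141 CPM without, with no overlap. That difference of -0.43 log2 ± 0.16 did not pass (adjusted p = 0.0576), and it passed with replicate number as a block (-0.42 log2, adjusted p = 0.0133). It also passed in DESeq2, with no filter and in a fit of the wild-type groups alone (adjusted p = 0.0327, 0.00555 and 0.0270), and without unstimulated wild-type replicate 2, unstimulated Mirc11-/- replicate 1, or stimulated Mirc11-/- replicate 1 or 2 (highest adjusted p = 0.0499).

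Of the Smads that carry the signal, Smad3 (ENSMUSG00000032402, chromosome 9, 63646767 to 63757994) fell in both genotypes. It had 27.2, 26.4 and 20.3 CPM in stimulated Mirc11-/- libraries, against 34.3, 35.1 and 36.4 CPM in unstimulated ones. In wild-type cells it had 21.98, 20.2 and 18.8 CPM with stimulation, against 29.0, 28.8 and 26.1 CPM without. All stimulated libraries were below all unstimulated ones of their genotype, with decreases of 1.43-fold in Mirc11-/- cells (-0.52 log2 ± 0.11, adjusted p = 0.00168) and 1.37-fold in wild-type cells (-0.46 log2 ± 0.11, adjusted p = 0.00573). Smad2 (ENSMUSG00000024563, chromosome 18, 76241580 to 76310963), its close relative, averaged 31.6 ± 2.91 CPM in stimulated and 37.7 ± 1.72 CPM in unstimulated Mirc11-/- cells (SD, n = 3), a fall of 0.25 log2 ± 0.09 (adjusted p = 0.0329). That call ended without stimulated Mirc11-/- replicate 1 (-0.18 log2, adjusted p = 0.112) and without unstimulated Mirc11-/- replicate 3 (-0.23 log2, adjusted p = 0.106), and also with the stricter filter and in a fit of these groups alone (adjusted p = 0.0685 and 0.0864). In wild-type cells Smad2 averaged 33.2 ± 1.47 CPM with stimulation and 38.3 ± 3.15 CPM without (-0.20 log2 ± 0.09, adjusted p = 0.0950), a difference that passed with no composition factor and without stimulated Mirc11-/- replicate 1 (adjusted p = 0.0169 and 0.0380). Smad4 (ENSMUSG00000024515, chromosome 18, 73639009 to 73703780), the common partner, was the steadiest of the 10, with 34.3 to 41.4 CPM over all libraries. Its 95% intervals were -0.19 to 0.13 log2 in Mirc11-/- cells and -0.19 to 0.11 log2 in wild-type cells (adjusted p = 0.772 and 0.709).

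The inhibitory Smad7 (ENSMUSG00000025880, chromosome 18, 75367529 to 75395935) was the gene of the 10 that rose in both genotypes. It had 24.8, 22.5 and 22.3 CPM in stimulated Mirc11-/- libraries, against 14.96, 14.001 and 10.7 CPM in unstimulated ones. In wild-type cells it had 16.9, 21.3 and 19.7 CPM with stimulation, against 10.4, 9.50 and 10.6 CPM without. Neither pair of groups overlapped, and Smad7 rose 1.75-fold in Mirc11-/- cells (0.81 log2 ± 0.13, adjusted p = 0.000224) and 1.90-fold in wild-type cells (0.92 log2 ± 0.13, adjusted p = 0.000137).

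The co-repressors differed from each other. Ski (ENSMUSG00000029050, chromosome 4, 155154075 to 155222592) had 25.2, 15.7 and 15.2 CPM in stimulated Mirc11-/- libraries, against 32.7, 32.9 and 31.1 CPM in unstimulated ones. In wild-type cells it had 14.996, 20.3 and 15.6 CPM with stimulation, against 25.9, 24.8 and 30.2 CPM without. It fell by 0.79 log2 ± 0.17 in Mirc11-/- cells (adjusted p = 0.00255) and by 0.67 log2 ± 0.17 in wild-type cells (adjusted p = 0.00987). Stimulated Mirc11-/- replicate 1 was closest to the unstimulated level, and without it the fall in Mirc11-/- cells was -1.06 log2. Skil (ENSMUSG00000027660, chromosome 3, 31095058 to 31122577), which encodes the related SnoN, averaged 119.9 ± 12.9 CPM in stimulated and 115 ± 4.29 CPM in unstimulated Mirc11-/- cells. In wild-type cells it averaged 113 ± 3.79 CPM with stimulation and 98.6 ± 4.00 CPM without (SD, n = 3 each). Its changes of 0.06 and 0.19 log2 did not pass (adjusted p = 0.558 and 0.1003), and the wild-type one passed in a fit of the wild-type groups alone and without stimulated Mirc11-/- replicate 1 (adjusted p = 0.0440 and 0.0312).

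**Figure D3:**
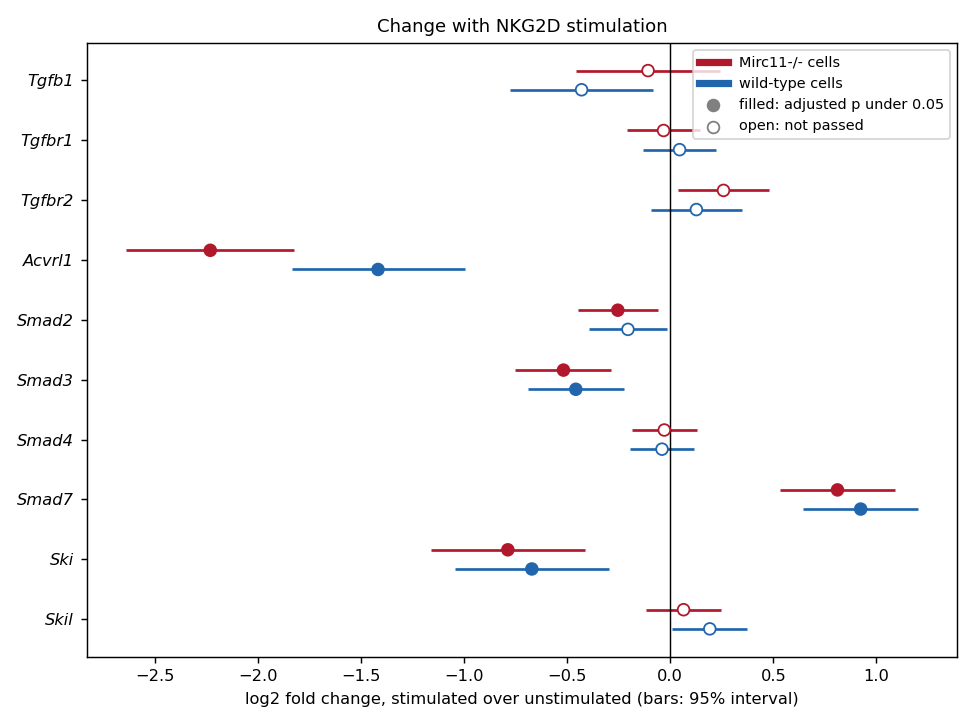
Log2 fold change of each gene with NKG2D stimulation in Mirc11-/- and wild-type cells, with 95% intervals and filled points where the adjusted p was under 0.05. Acvrl1, Smad3 and Ski lie left of 0 and Smad7 right of 0 in both genotypes.

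Other measures moved with stimulation in both genotypes. The vomeronasal sums given above did not overlap between stimulated and unstimulated libraries of either genotype, and the NK marker sums were lower in all stimulated libraries. Gzmb and Prf1 made up most of the NK sum, while Tbx21 and Klrk1 had higher group means with stimulation in both genotypes. Of the 10 NK markers 1 was higher and 7 lower in Mirc11-/- cells (all tested genes: 23.5% and 22.1%). In wild-type cells 2 were higher and 7 lower (all tested genes: 16.1% and 15.7%). In Mirc11-/- cells the summed markers were higher in every stimulated than in every unstimulated library for stromal and endothelial cells (2.56 to 3.65 CPM stimulated, 0.276 to 0.631 CPM unstimulated), dendritic cells (22.3 to 33.0 CPM stimulated, 10.5 to 14.1 CPM unstimulated), B cells (7.02 to 14.2 CPM stimulated, 3.48 to 4.45 CPM unstimulated), macrophages and monocytes (10.7 to 15 CPM stimulated, 5.24 to 9.49 CPM unstimulated) and erythroid cells and platelets (2.08 to 2.78 CPM stimulated, 1.17 to 1.71 CPM unstimulated). In wild-type cells the same held for stromal and endothelial (0.918 to 1.86 CPM stimulated, 0.157 to 0.165 CPM unstimulated), dendritic (24.8 to 28.4 CPM stimulated, 10.1 to 14.8 CPM unstimulated), macrophage and monocyte (15.95 to 19.1 CPM stimulated, 8.94 to 11.3 CPM unstimulated) and B-cell markers (5.81 to 8.71 CPM stimulated, 3.14 to 4.81 CPM unstimulated), while erythroid and platelet markers overlapped (0.612 to 1.47 CPM stimulated, 0.802 to 0.989 CPM unstimulated). T-cell markers overlapped in both genotypes, at 59.9 to 78.1 CPM in stimulated Mirc11-/- and 35.3 to 55.9 CPM in stimulated wild-type libraries. Mitochondrial genes took 16.45% to 18.8% of counts in stimulated and 13.4% to 16.1% in unstimulated Mirc11-/- libraries, and 15.2% to 16.4% in stimulated and 12.3% to 13.2% in unstimulated wild-type libraries, without overlap in either. Few genes made up most of some sums. Zbtb46 carried most of the dendritic sum, at 19.3 and 8.38 CPM in stimulated and unstimulated Mirc11-/- cells and 21.55 and 8.57 CPM in wild-type cells. Cd68 and Cd14 carried most of the macrophage and monocyte sum. Lyz2 and C1qa, at 0.1325 CPM or below in every group mean, were lower with stimulation in both genotypes. The part of the marker and mitochondrial shifts in the stimulation results was not tested. With the vomeronasal sum as a covariate none of the 5 calls held in Mirc11-/- cells, with changes of -1.45 log2 for Acvrl1, -1.54 for Ski, -0.80 for Smad3, 0.96 for Smad7 and 0.12 for Smad2 (adjusted p = 0.150, 0.107, 0.149, 0.154 and 0.820). Of all 17457 tested genes, 560 passed for this comparison with the covariate, against 7958 without it. The covariate did not overlap between these groups, and the SE of Acvrl1 went from 0.19 to 0.55 log2 and that of Smad7 from 0.13 to 0.37 log2. In wild-type cells the 4 calls held with the covariate, at -1.01 log2 for Acvrl1, -1.03 for Ski, -0.60 for Smad3 and 0.99 for Smad7 (adjusted p = 0.0400, 0.0202, 0.0283 and 0.00515). There 3865 of all tested genes passed with the covariate, against 5559 without it.

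Whether the response itself depended on Mirc11 was tested as the difference of the responses. None of the 10 genes passed in edgeR, where 1 had an unadjusted p under 0.05 (as did 1858 of the 17457 tested genes), and none passed in DESeq2 or limma voom, while 0.0115% of all tested genes passed in edgeR. Acvrl1 had the largest estimate of the 10, with a fall larger in Mirc11-/- cells by 0.81 log2 ± 0.27 (log2 difference -0.81, adjusted p = 0.442). The other estimates lay between -0.13 and 0.32 log2, and the interval of the difference was -0.50 to 0.28 log2 for Smad7, -0.39 to 0.27 log2 for Smad3 and -0.64 to 0.41 log2 for Ski.

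Between genotypes, Acvrl1 was the gene of the 10 that differed. Unstimulated Mirc11-/- cells had 13.96, 12.2 and 15.4 CPM and unstimulated wild-type cells 6.24, 5.77 and 5.13 CPM, so the lowest Mirc11-/- library was above the highest wild-type one. It was 2.43-fold higher in Mirc11-/- cells (1.28 log2 ± 0.18, adjusted p = 0.00218), while 1.11% of all tested genes passed in this comparison, 0.309% higher and 0.796% lower. The call held in all 21 alternative fits, at 1.196 to 1.36 log2, with a highest adjusted p of 0.0215. In stimulated cells Acvrl1 had 2.26, 3.85 and 2.75 CPM in Mirc11-/- libraries and 2.33, 1.78 and 2.29 CPM in wild-type libraries. These overlapped, and the difference of 0.47 log2 ± 0.21 did not pass (adjusted p = 0.151).

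Because Acvrl1 is known from endothelial cells and is also used by some myeloid cells, markers of other cells are given beside it. The 8 stromal and endothelial markers summed to 0.276 to 0.631 CPM in unstimulated Mirc11-/- libraries and 0.157 to 0.165 CPM in unstimulated wild-type libraries. Of these, Cdh5, Tek, Emcn and Pdgfra were at 0 in all unstimulated Mirc11-/- libraries. The other 4 had higher group means in unstimulated Mirc11-/- than in unstimulated wild-type cells, with Col1a2 at 0.359 and 0.0712 CPM, the endothelial Kdr at 0.0773 and 0.0317 CPM, and Dcn and Col3a1 at 0.0210 and 0 CPM each. The 6 macrophage and monocyte markers summed to 5.24 to 9.49 CPM in unstimulated Mirc11-/- and 8.94 to 11.3 CPM in unstimulated wild-type libraries, with Lyz2 at group means of 0.133 and 0.0979 CPM. For the 6 dendritic-cell markers the sums were 10.5 to 14.1 and 10.1 to 14.8 CPM, and for the 6 B-cell markers 3.48 to 4.45 and 3.14 to 4.81 CPM. The 6 erythroid and platelet markers summed to 1.17 to 1.71 and 0.802 to 0.989 CPM. The 6 T-cell markers summed to 54.1 to 95.03 and 32.5 to 53.6 CPM, and the part of the T-cell, stromal and erythroid differences in this result was not tested.

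The other 9 genes did not pass in unstimulated cells. Smad3, Smad7, Ski and Skil were nevertheless higher in every unstimulated Mirc11-/- library than in any unstimulated wild-type one, by 0.34, 0.38, 0.25 and 0.22 log2 (adjusted p = 0.221, 0.284, 0.774 and 0.382). Smad4 was lower in every one, by 0.09 log2 (adjusted p = 0.819). With Acvrl1 the groups did not overlap for 6 of the 10 genes, against 17.8% of all tested genes (8.87% higher and 8.91% lower). The median of the 10 was 0.17 log2, and of all tested genes 0.01 log2. Tgfb1, Tgfbr1, Tgfbr2 and Smad2 overlapped, with 95% intervals of -0.60 to 0.09, -0.05 to 0.30, -0.35 to 0.09 and -0.21 to 0.17 log2.

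In stimulated cells none of the 10 passed between genotypes in edgeR, with 2 at an unadjusted p under 0.05 (as were 5257 of the 17457 tested genes), and none in DESeq2 or limma voom, while 9.02% of all tested genes passed in edgeR, 3.89% higher and 5.13% lower. Groups did not overlap for Smad7 alone (23.2 ± 1.36 CPM in Mirc11-/- and 19.3 ± 2.25 CPM in wild-type cells, SD, n = 3; 0.27 log2 ± 0.13, adjusted p = 0.173), against 32.6% of all tested genes (15.8% higher and 16.8% lower). Smad3 averaged 24.7 ± 3.77 CPM in Mirc11-/- and 20.3 ± 1.60 CPM in wild-type cells (0.28 log2 ± 0.11, adjusted p = 0.112). It passed without stimulated Mirc11-/- replicate 3, its lowest library in that group (0.39 log2, adjusted p = 0.0340).

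**Figure D4:**
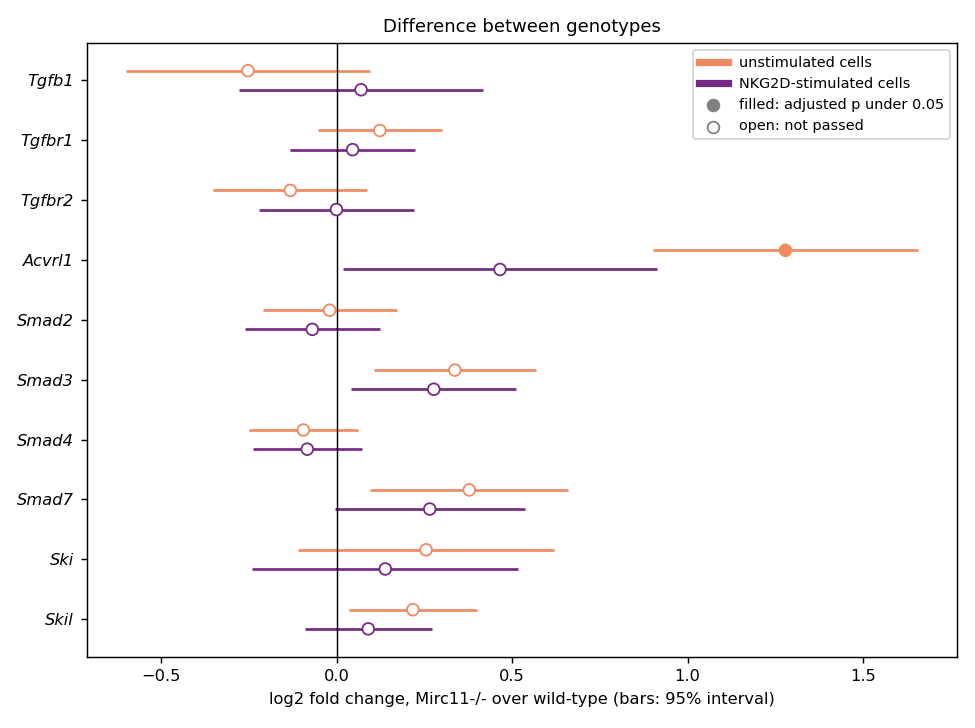
Log2 fold change of Mirc11-/- over wild-type cells for each gene, in unstimulated and in stimulated cells, with 95% intervals and filled points where the adjusted p was under 0.05. Acvrl1 in unstimulated cells, at 1.28 log2, is the one filled point.

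Other genes of the pathway were counted in 6 lists. Up to 4 genes per list and comparison are named, by smallest p. A gene named for a single genotype may therefore also have passed in the other. With the vomeronasal sum as a covariate, 38 of the 53 calls named from these lists were lost or changed sign. Among all 17457 tested genes, calls in that fit fell from 7958 to 560 for Mirc11-/- stimulation and from 5559 to 3865 for wild-type stimulation. Between genotypes they went from 193 to 265 in unstimulated cells and from 1575 to 30 in stimulated cells. Feedback inhibitors and turnover factors had 4 of 16 genes higher and 3 lower with stimulation in Mirc11-/- cells, where 23.5% of all tested genes were higher and 22.1% lower. These counts lie near the share among all genes. In wild-type cells 4 were higher and 1 lower, where 16.1% of all tested genes were higher and 15.7% lower. The largest rises were in Ldlrad4 and Pmepa1, whose proteins keep Smad2 and Smad3 from the receptor and whose genes are known targets of the pathway. Ldlrad4 averaged 13.96 ± 4.24 CPM in stimulated and 2.65 ± 0.298 CPM in unstimulated Mirc11-/- cells, and 11.8 ± 0.397 and 1.93 ± 0.154 CPM in stimulated and unstimulated wild-type cells (SD, n = 3), a rise of 5.24-fold and 6.05-fold (adjusted p = 9.82e-07 and 8.78e-07). Pmepa1 averaged 6.71 ± 2.07 and 1.67 ± 0.329 CPM in stimulated and unstimulated Mirc11-/- cells, and 4.34 ± 0.616 and 0.880 ± 0.0830 CPM in stimulated and unstimulated wild-type cells. It rose 3.99-fold and 4.92-fold (adjusted p = 2.77e-05 and 2.15e-05). Tgif1, a Smad co-repressor, rose by 0.68 and 0.67 log2, and the ubiquitin ligase gene Wwp1 fell by 0.43 and 0.50 log2 (highest adjusted p = 0.00142).

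**Figure D5:**
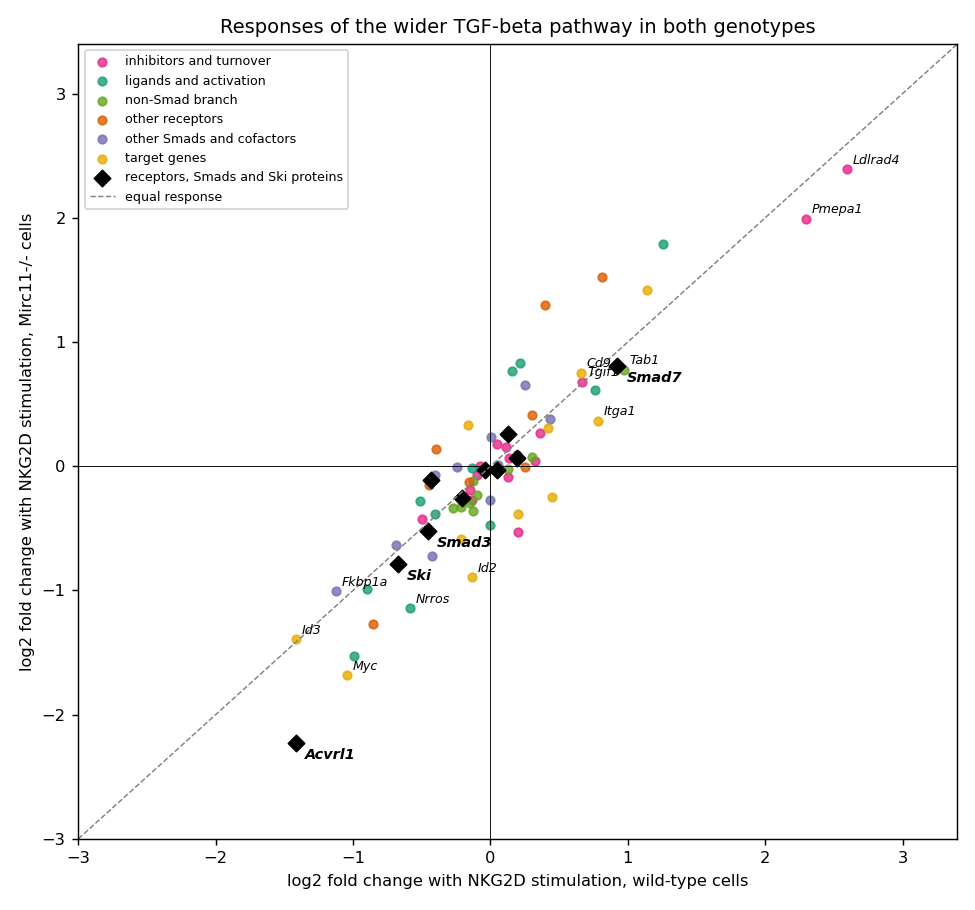
Log2 fold change with stimulation in Mirc11-/- cells (vertical) against that in wild-type cells (horizontal) for the genes of the 6 pathway lists and the 10 receptor, Smad and Ski genes, with a dashed line of equal response. Ldlrad4 and Pmepa1 lie farthest to the upper right (2.39 and 1.99 log2 in Mirc11-/- cells) and Acvrl1 farthest to the lower left (-2.23 log2).

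Of 11 tested ligand and activation genes, 2 rose, 4 fell and 5 did not pass in Mirc11-/- cells, where 22.1% of all tested genes fell. In wild-type cells 0 rose, 4 fell and 7 did not pass, where 15.7% of all tested genes fell. Nrros, which anchors latent TGF-beta on myeloid cells, averaged 45.6 ± 7.12 CPM in stimulated and 101 ± 6.71 CPM in unstimulated Mirc11-/- cells, and 64.6 ± 4.58 and 97.1 ± 7.09 CPM in stimulated and unstimulated wild-type cells (SD, n = 3). It fell by 1.14 and 0.59 log2 (adjusted p = 4.15e-06 and 0.00115), and the ligand gene Gdf11 fell by 0.99 and 0.90 log2 (adjusted p = 0.000190 and 0.000542). Ltbp1, for a protein that binds latent TGF-beta, and the integrin gene Itgb6 rose in Mirc11-/- cells by 0.83 and 1.79 log2 (adjusted p = 0.00238 and 0.00702). With the vomeronasal covariate neither passed, at -0.68 log2 ± 0.30 for Ltbp1 and 0.56 log2 ± 1.2 for Itgb6 (SE, adjusted p = 0.208 and 0.835). In wild-type cells Furin, which encodes a protease that cleaves the TGF-beta precursor, and Ltbp3 fell by 0.51 and 0.40 log2 (adjusted p = 0.00865 and 0.00910).

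Among other receptors, 3 of 8 tested rose and 1 fell in Mirc11-/- cells (all tested genes: 23.5% and 22.1%), and 1 rose and 0 fell in wild-type cells (all tested genes: 16.1% and 15.7%). With the stricter filter 1 rose and 0 fell in Mirc11-/- cells, where 3410 of all 14190 tested genes rose and 3318 fell. Bmpr2, a type II receptor of bone morphogenetic proteins, rose by 0.41 and 0.30 log2 (adjusted p = 0.00747 and 0.0438). Its wild-type call ended in 10 of the 12 fits that left out 1 library, those without any 1 of the unstimulated or stimulated wild-type libraries, of the unstimulated Mirc11-/- libraries, or stimulated Mirc11-/- replicate 3 (adjusted p up to 0.136). Bmpr1a and Tgfbr3 rose and Acvr1c fell in Mirc11-/- cells, all at 1.60 CPM or below in every group mean concerned (1.52, 1.3004 and -1.27 log2, highest adjusted p = 0.0220). The Tgfbr3 call ended without unstimulated Mirc11-/- replicate 1 or 2 or stimulated replicate 2 (adjusted p up to 0.0967), and the Bmpr1a call without unstimulated Mirc11-/- replicate 3 (adjusted p = 0.0621).

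Acvr2a, a type II receptor of activins, was the other receptor gene that differed between genotypes, in both treatments. It averaged 49.5 ± 3.77 CPM in unstimulated Mirc11-/- and 34.1 ± 1.68 CPM in unstimulated wild-type cells, and 45.4 ± 2.88 CPM in stimulated Mirc11-/- and 30.6 ± 1.82 CPM in stimulated wild-type cells (SD, n = 3). It was 1.45-fold and 1.48-fold higher in Mirc11-/- cells (adjusted p = 0.00541 and 0.00237), with no overlap in either treatment. Its change with stimulation did not pass in either genotype (-0.13 and -0.16 log2, adjusted p = 0.240 and 0.181). The unstimulated call held in all 21 alternative fits, and the stimulated call in 20 of 21, not with the vomeronasal sum as a covariate (0.45 log2, adjusted p = 0.568).

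The remaining Smads and cofactors had 1 of 10 tested genes higher and 3 lower in Mirc11-/- cells (all tested genes: 23.5% and 22.1%). They had 1 higher and 4 lower in wild-type cells (all tested genes: 16.1% and 15.7%). Fkbp1a, whose product FKBP12 holds type I receptors inactive, fell by 1.01 log2 in Mirc11-/- cells and 1.12 log2 in wild-type cells (adjusted p = 7.72e-06 and 4.20e-06). Runx3, a Smad-binding transcription factor gene of lymphocytes, fell by 0.63 and 0.69 log2 (adjusted p = 0.00297 and 0.00261), and Strap fell by 0.72 and 0.43 log2 (adjusted p = 0.000171 and 0.00944). Smad5, which acts downstream of bone morphogenetic protein receptors and ALK1, rose by 0.38 and 0.44 log2 (adjusted p = 0.00522 and 0.00303). The Strap call in wild-type cells ended without stimulated wild-type replicate 1 (adjusted p = 0.0507).

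In the non-Smad branch 1 of 10 genes rose and 5 fell in Mirc11-/- cells (all tested genes: 23.5% and 22.1%), and 1 rose and 2 fell in wild-type cells (all tested genes: 16.1% and 15.7%). Tab1, a partner of the kinase TAK1, rose by 0.78 and 0.97 log2 (adjusted p = 9.28e-06 and 1.75e-06). Mapk14, for the p38 kinase, fell by 0.33 and 0.27 log2, and Rock1 by 0.33 and 0.21 log2 (highest adjusted p = 0.0433). Both wild-type calls ended when single libraries were left out, in 5 fits for Mapk14 and 8 for Rock1 (adjusted p up to 0.0826 and 0.118). For both genes those were any stimulated wild-type library and replicates 2 or 3 of the unstimulated wild-type group. Unstimulated wild-type replicate 1, unstimulated Mirc11-/- replicate 3 and stimulated Mirc11-/- replicate 3 mattered for Rock1 alone. Ppp2r1a fell by 0.36 log2 in Mirc11-/- cells (adjusted p = 0.00861).

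Known target genes of TGF-beta moved in both directions, with 4 of 11 tested higher and 5 lower in Mirc11-/- cells (all tested genes: 23.5% and 22.1%). In wild-type cells 4 were higher and 2 lower (all tested genes: 16.1% and 15.7%). Cd9, a tetraspanin gene, rose by 0.75 and 0.66 log2 (adjusted p = 8.11e-06 and 3.72e-05), and Itga1, for the integrin CD49a, averaged 248 ± 21.6 CPM in stimulated and 144 ± 8.57 CPM in unstimulated wild-type cells (SD, n = 3; 0.78 log2, adjusted p = 2.98e-05). Myc, a growth regulator that TGF-beta is known to repress, fell by 1.68 and 1.04 log2 (adjusted p = 1.11e-06 and 8.08e-05). Id3, an inhibitor of helix-loop-helix factors, fell by 1.39 and 1.41 log2, and Id2 fell by 0.89 log2 in Mirc11-/- cells (highest adjusted p = 0.000647).

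Between genotypes the target list had 1 of 11 genes higher and 0 lower in unstimulated cells (all tested genes: 0.309% and 0.796%). It had 1 higher and 5 lower in stimulated cells (all tested genes: 3.89% and 5.13%). In stimulated cells the count of 6 was 0 with the vomeronasal sum as a covariate, 2 in a fit of the stimulated groups alone, and 3 and 4 without stimulated wild-type replicate 2 and replicate 3. Of all tested genes 1575 passed between genotypes in stimulated cells, against 30 with the covariate and 215 in the fit of the stimulated groups alone. Without stimulated wild-type replicate 2, 337 of all 18346 tested genes passed, and without replicate 3 of that group 449 of 18315. Id3 averaged 4.94 ± 0.273 CPM in unstimulated Mirc11-/- and 2.34 ± 0.361 CPM in unstimulated wild-type cells (SD, n = 3; 1.08 log2, adjusted p = 0.0238). That call ended without any 1 of the 6 unstimulated libraries (adjusted p up to 0.125). In stimulated cells Id3, named here after its value was seen, was also higher, by 1.10 log2 (adjusted p = 0.0201). The stimulated Id3 call ended in a fit of the stimulated groups alone, without stimulated wild-type replicate 2 and with the vomeronasal covariate. Cdkn1a, Id2, Junb and Cdkn2b were lower in stimulated Mirc11-/- cells by 0.81, 0.82, 0.75 and 0.92 log2 (highest adjusted p = 0.0135). The calls of Junb (without stimulated wild-type replicate 2 or 3, adjusted p = 0.0503 and 0.0533) and Cdkn2b (without stimulated wild-type replicate 2 or stimulated Mirc11-/- replicate 1, adjusted p = 0.0637 and 0.0694) ended. Nrros and Tgif2 were lower by 0.50 and 0.93 log2 (adjusted p = 0.0173 and 0.0207), calls that ended without stimulated wild-type replicate 2, and for Tgif2 also without replicate 3 (adjusted p up to 0.0951). In a fit of the stimulated groups alone Id2, Junb, Nrros and Tgif2 did not pass (adjusted p = 0.0630, 0.0639, 0.0955 and 0.0546). No gene of the 6 lists passed in the difference of the responses in edgeR.

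For the genes examined other than Tgfb1, the genes with the most similar profiles over the 12 libraries were found by the smallest root mean square difference of centred log2 CPM, among tested genes whose log2 CPM averaged 4 or more. For Acvrl1 these were Cdh17 and Cdk14, at 0.37 and 0.42 log2 against its own spread of 1.04 log2. For Smad7 they were Usp40 and Ift140 (0.14 and 0.16 against 0.48), for Ski Pitpnm2 and Zbtb33 (0.12 and 0.14 against 0.44), and for Smad3 Inpp4b and Gm4759 (0.13 each against 0.31). Tgfbr1, Tgfbr2, Smad2, Smad4 and Skil varied by 0.07 to 0.14 log2 in all, and the genes nearest to them were Lrif1 and Celf2, Tor4a and Tspan14, Nedd4 and Ctnnbl1, Pi4kb and Tm9sf1, and Zfp942 and Shprh, at 0.04 to 0.07 log2.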

How the data were processed

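The authors deposited expected counts per gene, unscaled and already whole numbers. The submitters' processing notes name RSEM 1.3.0, Bowtie2 2.2.8, Trim Galore 0.4.1, bcl2fastq and the build GRCm38. The annotation release and strand setting are not given in the sources used here. From these counts, genes were filtered with filterByExpr by group (minimum count 10), scaled with TMM and fitted in edgeR 4.0.16 (R 4.3.3; quasi-likelihood, robust), with 1 mean per group over all 12 libraries. P values are two-sided and adjusted over all tested genes. SE is the log2 change divided by the square root of F. CPM uses TMM-adjusted totals. Lengths and untranslated regions came from GENCODE vM21, which held all 10 genes; at most 1.79% of the 31-mers of any of them occurred in other genes. Scripts were tested on simulated data. P values measure only the spread between these samples.

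The 10 genes, the lists, the rule for named list genes (up to 4 per list and comparison, by smallest p) and the alternatives were chosen with earlier results of these data known. Wild-type same-numbered libraries deviated from their group means together (r = 0.260, 0.372 and 0.322 over 10806 genes), so the replicate number was taken to pair them; this came from the data, not the labels. Alternatives were DESeq2 1.42.0, limma 3.58.1 voom, other scalings and filters, smaller fits, a replicate block, the vomeronasal covariate and leaving out each library. The genes most like Tgfb1 in profile are not reported here.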

Additional observations from a re-analysis of the deposited data

How the results depend on the processing

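Counts of calls among the 10 genes kept within 1.5 times, except that stimulation in Mirc11-/- cells gave 0 with the vomeronasal covariate and that leaving out 1 library gave 4 to 7 for stimulation in wild-type cells (7 without stimulated Mirc11-/- replicate 1) and 0 to 1 for the genotypes in stimulated cells (1 without stimulated Mirc11-/- replicate 3). With the covariate 560 of all 17457 tested genes passed for stimulation in Mirc11-/- cells, against 7958 without it. Without stimulated Mirc11-/- replicate 1, 6852 of 17683 passed for stimulation in wild-type cells, against 5559 of 17457 with every library. Without stimulated Mirc11-/- replicate 3, 1337 of 17996 passed between genotypes in stimulated cells, against 1575 of 17457. The cause of these changes in count was not tested. The replicate block gave 5 and 5 calls for stimulation in Mirc11-/- and wild-type cells, 0 for the difference of responses, and 1 and 0 for the genotypes. Of all 17457 tested genes 8320 and 5958 passed with the block for stimulation in Mirc11-/- and wild-type cells. For the difference of responses 13 passed, and for the genotypes 176 in unstimulated and 2142 in stimulated cells. Of the 10 genes it changed the call of Tgfb1 in wild-type cells alone. In Mirc11-/- cells same-numbered libraries were each other's best match for replicates 1 and 3 and not for replicate 2 (r = 0.174, 0.296 and -0.0809). Replicate 1 of the stimulated Mirc11-/- and stimulated wild-type groups also matched best (r = 0.268). All sign changes of log2 values follow; apart from those with the covariate, none was of a called result. In Mirc11-/- stimulation, Tgfbr1 was 0.028 and Smad4 0.030 with the stricter filter, Skil -0.038 with no filter, and with the covariate Smad2 was 0.12, Smad4 0.25, Skil -0.27, Ltbp1 -0.68, Bmpr2 -0.018, Strap 0.074, Mapk14 0.090, Ppp2r1a 0.18 and Id2 0.057. In wild-type stimulation, Tgfbr1 was -0.020 with no composition factor and -0.13 with the covariate, and Smad4 0.10 with the covariate. In the difference of responses, Smad2 was 0.014 and Smad3 0.0097 with no composition factor, Smad2 0.13 with the covariate and Smad4 -0.045 with no filter. Between genotypes in stimulated cells, no filter gave Tgfb1 -0.028, Tgfbr1 -0.041 and Skil -0.00080, Tgfbr2 was 0.061 with no composition factor and 0.039 with the stricter filter, and the covariate gave Tgfb1 -0.23, Tgfbr1 -0.14, Tgfbr2 0.18, Smad2 0.13, Smad4 0.067, Ski -0.28 and Skil -0.092. Leaving out 1 library gave, for Mirc11-/- stimulation, -0.30 to 0.010 (Tgfb1), -0.091 to 0.0045 (Tgfbr1), -0.071 to 0.025 (Smad4) and -0.016 to 0.12 (Skil); for the difference of responses, -0.11 to 0.034 (Smad2), -0.13 to 0.057 (Smad3), -0.028 to 0.071 (Smad4) and -0.38 to 0.026 (Ski); for the genotypes unstimulated, -0.084 to 0.035 (Smad2), and stimulated, -0.12 to 0.15 (Tgfb1), -0.015 to 0.088 (Tgfbr1), -0.056 to 0.077 (Tgfbr2), -0.12 to 0.0042 (Smad2) and -0.14 to 0.28 (Ski). The same alternatives were added for the list genes after seeing the data. Acvrl1, at 35 to 66 counts in stimulated libraries, has the least depth of the 10.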
